A study of Mus musculus with 9 samples.

Results

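The 45 genes described here carry the cell division cycle and DNA replication, and they were taken by symbol from the 46095 symbols of a count table of mouse bone marrow-derived macrophages. These macrophages are grown in culture from marrow precursor cells, here from wild-type Balb/c mice aged 6 weeks. The 9 RNA sequencing libraries form 3 groups of 3, treated with LPS plus BHB, with LPS, or left as control. No dose, time or full name of either agent is stated in the labels, and no group received BHB alone. The usual reading of LPS is lipopolysaccharide, a bacterial wall component that macrophages sense, and that of BHB is beta-hydroxybutyrate, a ketone body. Since nothing says whether replicates were separate cultures or animals, p-values cover the spread between libraries, which may be technical. All 45 genes had enough counts to be tested, among 14026 tested genes.

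D-type cyclins with their kinases drive cells through G1 by phosphorylating the retinoblastoma family, the pocket proteins, which otherwise hold E2F transcription factors in check. E2F factors then switch on the genes for the replicative helicase, nucleotide synthesis and the S-phase cyclins, and a later programme of mitotic genes follows in G2. Macrophages grown from marrow divide in response to macrophage colony-stimulating factor, and exposure to LPS is a classical way to stop that division. In bulk RNA, fewer cells of a type and less RNA per cell cannot be told apart, so a level below means the level averaged over the whole culture.

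Total counts ran from 30767004 to 32228186 in the LPS plus BHB libraries, from 29633411 to 32100107 in the LPS libraries and from 30809141 to 32798920 in the control libraries. CPM, the depth-scaled counts used throughout, divide counts by the TMM-adjusted library total. The 10 macrophage markers summed to 15421 to 15941 CPM in LPS plus BHB, 9517 to 10876 CPM in LPS and 20757 to 24196 CPM in control, and 8 of the 10 fell with LPS. The 8 neutrophil and myeloid precursor markers summed to 1.48 to 3.83 CPM in LPS plus BHB, 0.385 to 0.824 CPM in LPS and 2.36 to 3.69 CPM in control. Their part in the results was not tested. Among them *Mpo*, a defining precursor gene, stood at 0 in 3 of 3 LPS plus BHB libraries and in 2 of 3 LPS libraries, and at 0.161 to 0.338 CPM in control. *Ngp* and *Ltf*, neutrophil granule genes, were the 2 of the 8 with enough counts to test, and both were higher in LPS plus BHB against LPS, by 1.98 and 1.99 on the log2 scale (edgeR adjusted p = 0.00215 and 0.0254). Both were low and highest in LPS plus BHB replicate 1. *Ngp* was at 2.17, 0.556 and 0.812 CPM in LPS plus BHB and 0.210 to 0.363 CPM in LPS. *Ltf* overlapped between these groups, at 1.22, 0.486 and 0.353 CPM in LPS plus BHB and 0 to 0.396 CPM in LPS. Of 4 stem and progenitor markers, 2 had enough counts to test. *Kit* was higher in LPS plus BHB against LPS, by 0.86 (edgeR adjusted p = 0.0461), at 1.45 to 1.88 CPM in LPS plus BHB, 0.725 to 1.03 CPM in LPS and 0.321 to 0.800 CPM in control. *Cd34* was not called in that comparison (0.61, edgeR adjusted p = 0.393). Against control it was lower in LPS plus BHB by 1.51 (edgeR adjusted p = 0.00567) and in LPS by 2.12 (edgeR adjusted p = 0.000569). A sum of 8 LPS-induced genes was 12556 to 13644 CPM in LPS plus BHB and 9669 to 10076 CPM in LPS, against 19.96 CPM in control replicate 1 and 99.0 and 97.2 CPM in control replicates 2 and 3. Of these 8 genes, between LPS plus BHB and LPS, *Il1b* rose, *Nos2* and *Csf2* fell and 5 were not called. The median log2 fold change of the 8 was -0.11. Among the 5, *Acod1* held most of the sum in the treated libraries. It did not overlap between the groups, at 7758 to 8151 CPM in LPS plus BHB and 5519 to 5747 CPM in LPS. *Il12b* (463 to 680 against 1134 to 1191 CPM) and *Il6* (221 to 263 against 298 to 333 CPM) did not overlap either. The SE of *Acod1* was 0.87, from a spread shared with the control libraries, where it was at 0.676, 46.6 and 49.9 CPM.

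Most of the 45 genes fell with LPS, and a few rose strongly, among them *Mki67*, *Ccnd2* and *E2f8*. In LPS against control 11 members were higher and 27 lower at an adjusted p under 0.05 (quasi-likelihood test in edgeR, Benjamini-Hochberg adjustment over all tested genes). Among all tested genes 38.4% were called higher and 41.4% lower in that comparison. The members' median log2 fold change was -0.60, beside -0.06 over all tested genes. In LPS plus BHB against LPS 13 members were higher and 13 lower, where 26.4% and 24.4% of all tested genes were called in those directions, so the share of members called was near that of genes in general. Their median was 0.02, beside 0.01 over all tested genes. In LPS plus BHB against control 11 members were higher and 28 lower, where 38.0% and 40.4% of all tested genes were called, and the median was -0.81 beside -0.06. The 3 comparisons share libraries with each other and are not independent. When libraries were scaled by their totals alone, the median of all tested genes moved by -0.27 for LPS against control and by -0.33 for LPS plus BHB against control. The share of higher genes among called ones then went to 37.7% from 48.2% and to 34.7% from 48.5%. Members called higher and lower were then 9 and 29 for LPS against control and 8 and 33 for LPS plus BHB against control. With control replicate 1 as the only control library, 11 members were higher and 22 lower in each of those comparisons.

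**Figure D1:**
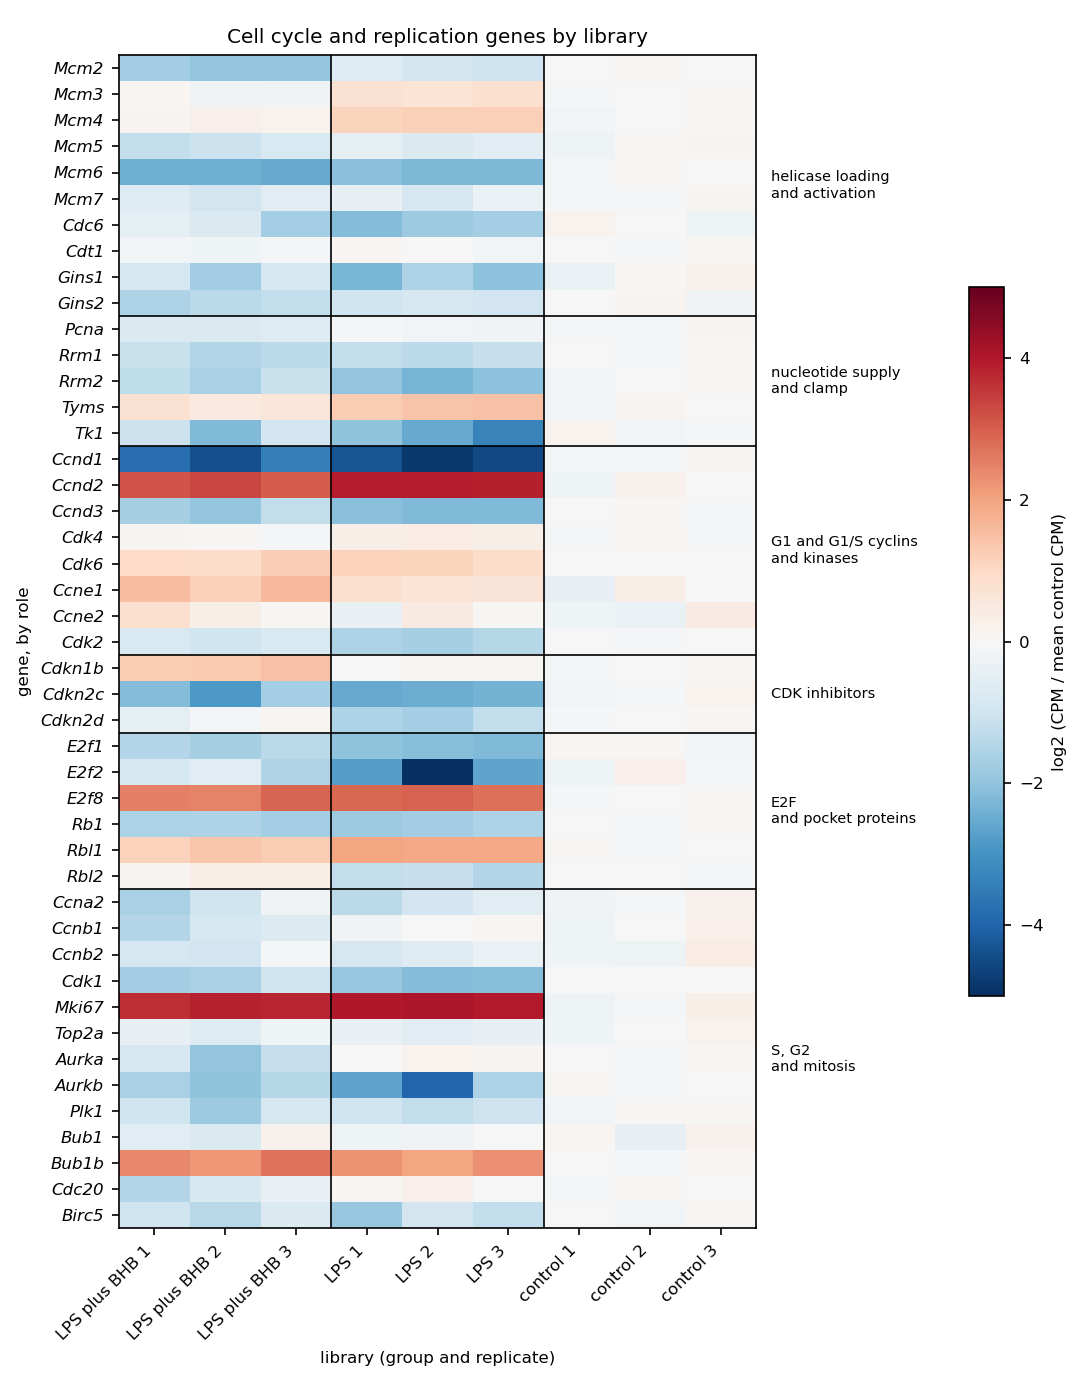
Each row is a gene and each column a library, coloured by the log2 ratio of its CPM to the mean CPM of the 3 control libraries (red higher, blue lower). *Ccnd2*, *E2f8*, *Mki67* and *Bub1b* were red in all 6 treated libraries, and *Ccnd1* was dark blue in all 6.

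**Figure D2:**
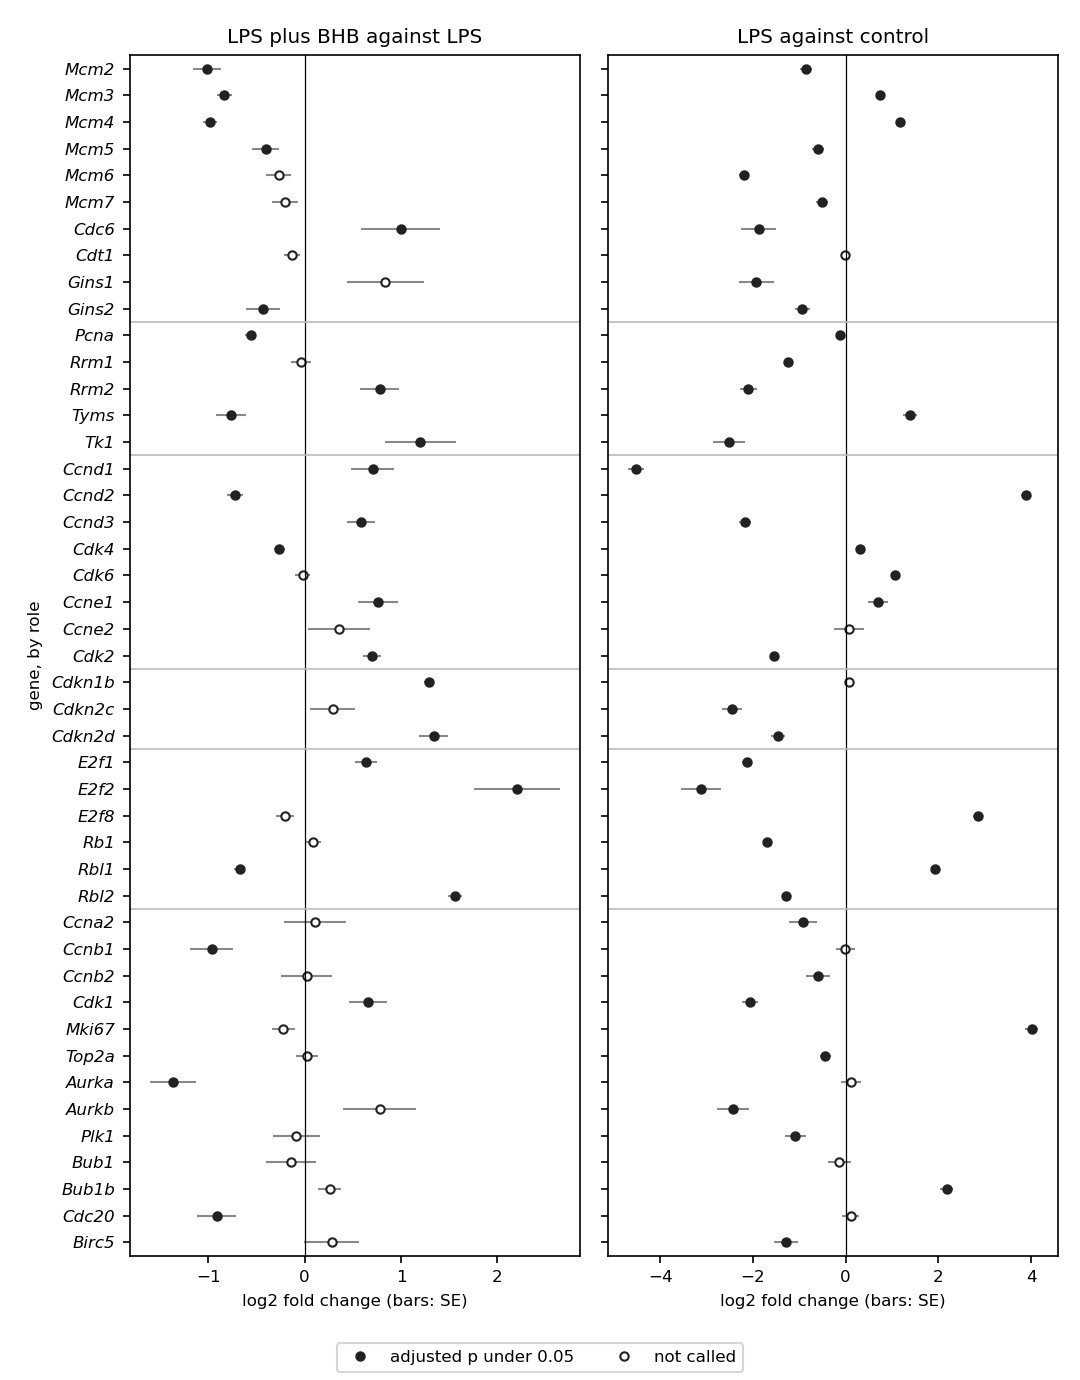
Log2 fold changes of the 45 genes with their SE, for LPS plus BHB against LPS and for LPS against control, with filled points for calls at an adjusted p under 0.05. The horizontal scales of the panels differ, since the changes with LPS reached -4.52 and 4.01 and those with BHB added reached -1.37 and 2.21.

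The promoters of these genes were searched for letters that E2F factors and the late cell cycle complex are known to bind. E2F letters were TTTCCCGC, TTTGGCGC, TTTCGCGC and TTTGCCGC, the CHR (cell cycle genes homology region) letters were TTTGAA and TTCGAA, and the third motif was CCAAT, all on both strands. Windows of 300 bases, 250 before and 50 after the start in RefSeq (GRCm38.p6), were present for 36 of the 45 genes, as 40 windows. E2F letters were in 10 of those 40 windows and in 2.26% of all 32851 windows. CHR letters were in 35.0% and 19.2%, and CCAAT in 67.5% and 37.4%. The 36 genes with a window comprised 9 that were higher, 21 that were lower and 6 that were not called with LPS, and the 10 with E2F letters comprised 2, 7 and 1 of these. Genes with the same letters therefore moved in either direction, and a match is only a description of the window.

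The subunit genes of the replicative helicase diverged with LPS, *Mcm3* and *Mcm4* rising and the other 4 falling. *Mcm2* to *Mcm7* encode the ring of MCM subunits that unwinds DNA, and the ring holds each subunit once. *Mcm4* was at 22.5, 25.05 and 23.5 CPM in the LPS plus BHB libraries, 45.2, 46.97 and 47.9 CPM in the LPS libraries and 18.6, 21.2 and 22.4 CPM in the control libraries. *Mcm6* was at 3.56, 3.61 and 3.39 CPM in the LPS plus BHB libraries, 4.55, 4.09 and 4.07 CPM in the LPS libraries and 18.7, 20.4 and 19.2 CPM in the control libraries. The LPS libraries thus had the highest *Mcm4* values and the control libraries the highest *Mcm6* values, with no overlap between LPS and control for either gene. Against control *Mcm4* rose with LPS by 1.17 (SE 0.07, edgeR adjusted p = 5.09e-12) on the log2 scale, whereas the log2 fold change of *Mcm6* was -2.20 (SE 0.11, edgeR adjusted p = 1.37e-13). *Mcm3* also rose, with a log2 fold change of 0.75 (SE 0.08), while *Mcm2*, *Mcm5* and *Mcm7* fell by 0.85, 0.60 and 0.51 on that scale.

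**Figure D3:**
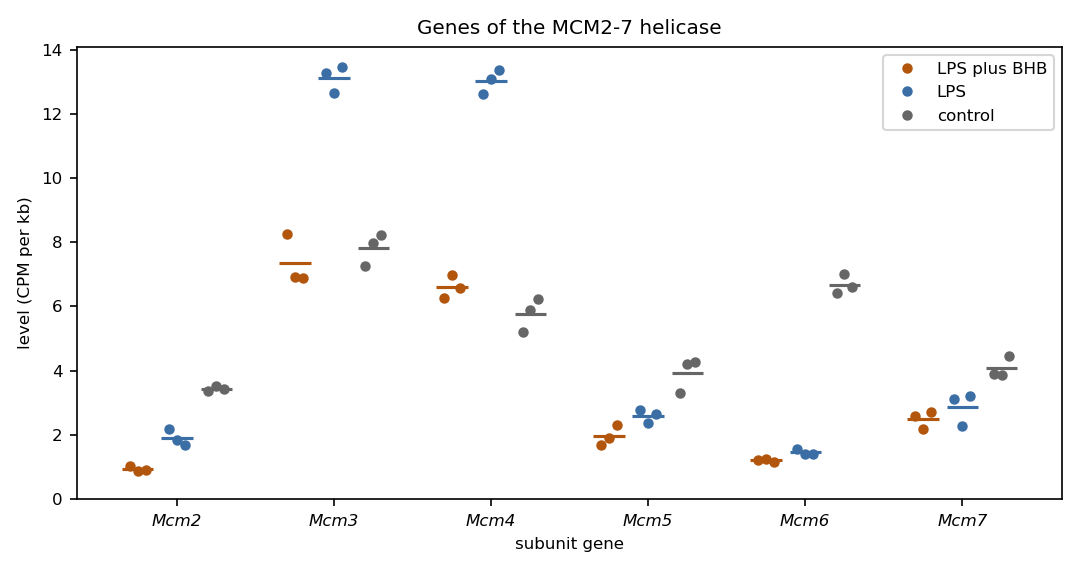
Levels of the 6 helicase genes in CPM per kilobase of their principal transcript, with a point for each library and a line at each group mean. *Mcm3* and *Mcm4* reached 13.1 and 13.0 CPM per kb in LPS, above the other groups, and *Mcm6* fell to 1.21 and 1.46 CPM per kb in LPS plus BHB and LPS, against 6.68 in control.

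Per kilobase of transcript, the highest MCM subunit exceeded the lowest by 7.84-fold in LPS plus BHB, 9.14-fold in LPS and 2.29-fold in control, as means over 3 libraries. These ratios were 14.9, 14.8 and 3.79 when all annotated exons were used as the length, a choice made after seeing the data. *Mcm6* held 5.89% ± 0.268 of the summed MCM level per kb in LPS plus BHB and 4.17% ± 0.248 in LPS, against 21.1% ± 1.05 in control (SD, n = 3 each). *Mcm4* held 32.1% ± 2.5 in LPS plus BHB and 37.3% ± 1.71 in LPS, against 18.2% ± 0.570 in control. The sum itself was 20.6 ± 0.498 CPM per kb in LPS plus BHB, 35.0 ± 1.15 in LPS and 31.7 ± 2.02 in control.

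With BHB added to LPS, *Mcm2* to *Mcm5* were lower than with LPS alone and no MCM gene was higher. *Mcm3* was at 25.1, 20.9 and 20.9 CPM in the LPS plus BHB libraries, 40.2, 38.3 and 40.8 CPM in the LPS libraries and 22.02, 24.2 and 24.9 CPM in the control libraries. *Mcm2* was at 3.49, 2.95 and 3.07 CPM in the LPS plus BHB libraries, 7.39, 6.19 and 5.66 CPM in the LPS libraries and 11.3, 11.9 and 11.5 CPM in the control libraries. *Mcm3* in LPS plus BHB overlapped control, although by library totals alone it fell by 0.41 against control (edgeR adjusted p = 9.12e-05), while *Mcm2* went stepwise lower, with no overlap between any of its groups. Against LPS, the log2 fold changes with BHB were -1.02 (SE 0.15, edgeR adjusted p = 5.69e-06) for *Mcm2*, -0.98 (SE 0.07, edgeR adjusted p = 6.51e-10) for *Mcm4* and -0.83 (SE 0.08, edgeR adjusted p = 1.85e-08) for *Mcm3*. *Mcm5* fell by 0.40, a call that was lost without LPS replicate 1 (edgeR adjusted p = 0.0772) and without LPS plus BHB replicates 1 or 2 (edgeR adjusted p = 0.104 and 0.0597). *Mcm6* (-0.27 (SE 0.13, edgeR adjusted p = 0.0926)) and *Mcm7* (-0.20 (SE 0.14, edgeR adjusted p = 0.236)) did not pass, although *Mcm6* did by library totals alone (edgeR adjusted p = 0.0408) and *Mcm7* without LPS replicate 2 (edgeR adjusted p = 0.0455). Against control, *Mcm6* and *Mcm2* fell by 2.46 and 1.87 on the log2 scale in LPS plus BHB. The small *Mcm4* rise against control of 0.19 (SE 0.08, edgeR adjusted p = 0.0276) was lost without control replicate 1 or LPS plus BHB replicate 2, and turned to -0.13 by library totals alone. Part of the *Mcm7* transcript sequence, 47.6% of its 31-base words, occurs in other genes, chiefly *Gm5487*, so its counts are uncertain, and other genes' exons, chiefly of *Ap4m1* and *Cops6* on the opposite strand, overlap 12.6% of its exon bases.

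The *Mcm6* promoter carried E2F letters 3 times, beginning 110, 106 and 47 bases before the start, and is shown because this gene fell the most of the MCM set. The 120 bases before its RefSeq start, chr1:128359706-128359825 on the minus strand of GRCm38, read as follows, with the matches in capitals and the first 2 overlapping on opposite strands.
Mcm6: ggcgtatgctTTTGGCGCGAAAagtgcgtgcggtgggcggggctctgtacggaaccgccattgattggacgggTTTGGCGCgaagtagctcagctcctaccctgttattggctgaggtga

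Of the 10 helicase loading and activation genes, MCM included, 7 fell and 2 rose with LPS, 5 fell and 1 rose with BHB against LPS, and 7 fell and 1 rose in LPS plus BHB against control. The shares of all tested genes called lower and higher in those comparisons were 41.4% and 38.4%, 24.4% and 26.4%, and 40.4% and 38.0%. *Gins2*, a subunit of the GINS complex that joins the helicase, was at 2.37, 2.74 and 2.96 CPM in the LPS plus BHB libraries, 3.46, 3.88 and 3.54 CPM in the LPS libraries and 7.10, 7.66 and 6.07 CPM in the control libraries. Each treated library lay below each control library. Its log2 fold changes were -0.94 (SE 0.16, edgeR adjusted p = 2.07e-05) for LPS against control and -1.37 (SE 0.17, edgeR adjusted p = 2.13e-07) for LPS plus BHB against control. Between LPS plus BHB and LPS it was -0.43 (SE 0.17, edgeR adjusted p = 0.0471), a call lost without any one of the libraries except LPS plus BHB replicate 3. Opposite-strand *Gse1* exons overlap 67.3% of the *Gins2* exon bases, and the strand setting of the counting is unknown. *Gins1*, of the same complex, and *Cdc6*, which loads the helicase, were low everywhere, with highest values of 1.88 and 1.69 CPM in control. They fell by 1.93 and 1.87 on the log2 scale with LPS. *Cdc6* was 1.00 higher with BHB against LPS, at an edgeR adjusted p = 0.047 that was lost under all alternatives except DESeq2 size factors and leaving out LPS plus BHB replicate 3. *Cdt1*, the partner of *Cdc6* in loading, was not called in any comparison, with log2 fold changes from -0.13 to 0.00, although by library totals alone it fell by 0.28 with LPS and by 0.46 with LPS plus BHB against control.

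Of the 5 genes of nucleotide supply and the sliding clamp, 4 fell with LPS, where 41.4% of all tested genes were called lower. The fall of the clamp gene, *Pcna*, was small (-0.13) and not stable, and thymidylate synthase went the other way. *Rrm1* and *Rrm2* encode the large and small subunits of ribonucleotide reductase, the enzyme that makes deoxynucleotides. *Rrm2* was at 2.95, 2.33 and 3.28 CPM in the LPS plus BHB libraries, 1.81, 1.43 and 1.73 CPM in the LPS libraries and 6.53, 7.17 and 7.64 CPM in the control libraries, and *Rrm1* was at 12.9, 10.04 and 11.3 CPM in the LPS plus BHB libraries, 11.7, 11.1 and 12.4 CPM in the LPS libraries and 27.1, 25.9 and 29.9 CPM in the control libraries. For each gene every treated library lay below every control library. The log2 fold changes with LPS against control were -2.10 (SE 0.19, edgeR adjusted p = 1.8e-09) for *Rrm2* and -1.24 (SE 0.10, edgeR adjusted p = 1.63e-10) for *Rrm1*. BHB with LPS left *Rrm1* at -0.04 (SE 0.10) against LPS, not called, and raised *Rrm2* by 0.78 (SE 0.20, edgeR adjusted p = 0.00275). *Tk1*, the salvage thymidine kinase, fell with LPS by 2.51 and rose with BHB against LPS by 1.20 (SE 0.37, edgeR adjusted p = 0.00997). That rise missed the threshold without LPS replicate 3 (edgeR adjusted p = 0.0561), and *Tk1* stayed under 4 CPM throughout. LPS plus BHB and LPS overlapped for *Tk1*, with 0.695 CPM in LPS plus BHB replicate 2 and 0.791 CPM in LPS replicate 1. Of the 31-base words of *Rrm2*, 16.5% occur in other genes.

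*Tyms*, thymidylate synthase, which makes thymidine monophosphate anew, was at 4.61, 3.79 and 4.06 CPM in the LPS plus BHB libraries, 6.46, 7.21 and 7.50 CPM in the LPS libraries and 2.48, 2.97 and 2.62 CPM in the control libraries. The 3 groups did not overlap, with LPS highest and control lowest. Its log2 fold changes were 1.39 (SE 0.16, edgeR adjusted p = 1e-07) for LPS against control and -0.76 (SE 0.16, edgeR adjusted p = 0.000380) for LPS plus BHB against LPS. For LPS plus BHB against control the change was 0.63 (SE 0.17, edgeR adjusted p = 0.00196). By library totals alone that change was 0.30 and not called (edgeR adjusted p = 0.104). Of the 31-base words of *Tyms* 17.5% occur elsewhere, among others in *Tyms-ps*.

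*Pcna*, the sliding clamp of DNA polymerases and also a DNA repair factor, had the highest level per kilobase of all 45 genes in each group. It was at 152, 154 and 163 CPM in the LPS plus BHB libraries, 234, 232 and 226 CPM in the LPS libraries and 239, 241 and 277 CPM in the control libraries. The LPS plus BHB libraries lay below all others, and the log2 fold changes were -0.56 (SE 0.05, edgeR adjusted p = 1.79e-08) against LPS and -0.69 (SE 0.05, edgeR adjusted p = 1.39e-10) against control. The LPS change of -0.13 (SE 0.05, edgeR adjusted p = 0.0265) was not stable, since it was lost without control replicate 3 (-0.06, edgeR adjusted p = 0.271), without any one of the LPS libraries, and with DESeq2 (-0.10, adjusted p = 0.123). Of its 31-base words 38.0% occur elsewhere, chiefly in *Pcna-ps2*.

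The D-type cyclins exchanged places with LPS. *Ccnd1* (GRCm38 chr7:144929931-144939925, minus strand) was at 2.14, 1.42 and 2.79 CPM in the LPS plus BHB libraries, 1.52, 1.05 and 1.31 CPM in the LPS libraries and 28.5, 28.1 and 33.00 CPM in the control libraries. *Ccnd2* (chr6:127125162-127152193, minus strand) was at 26.5, 30.2 and 24.1 CPM in the LPS plus BHB libraries, 44.6, 45.3 and 43.5 CPM in the LPS libraries and 2.59, 3.43 and 2.90 CPM in the control libraries. *Ccnd3* was at 10.4, 8.41 and 14.01 CPM in the LPS plus BHB libraries, 7.65, 7.17 and 7.04 CPM in the LPS libraries and 33.6, 33.7 and 30.8 CPM in the control libraries. For each of the 3 cyclins the control libraries stood apart from the 6 treated ones, below them for *Ccnd2* and above them for *Ccnd1* and *Ccnd3*. *Ccnd1* was lower 23.0-fold in LPS than in control, a log2 fold change of -4.52 (SE 0.17, edgeR adjusted p = 3.66e-15). *Ccnd2* was 14.9-fold higher, at 3.90 (SE 0.11, edgeR adjusted p = 3.12e-18), and *Ccnd3* changed by -2.16 (SE 0.13, edgeR adjusted p = 7.71e-11). Opposite-strand *LTO1* exons overlap 23.4% of the *Ccnd1* exon bases.

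With BHB added to LPS all 3 cyclins lay closer to control than with LPS alone, by much less than the change with LPS. Against LPS, *Ccnd2* fell by 0.72 (SE 0.08, edgeR adjusted p = 3.54e-07) and *Ccnd3* rose by 0.58 (SE 0.14, edgeR adjusted p = 0.00244). *Ccnd1* rose by 0.71 (SE 0.23, edgeR adjusted p = 0.0137), but its groups overlapped and the call was lost without LPS plus BHB replicate 3 (0.46, edgeR adjusted p = 0.108) or LPS replicate 2 (0.58, edgeR adjusted p = 0.0687). Against control, log2 fold changes in LPS plus BHB were -3.82 (SE 0.16, edgeR adjusted p = 1.83e-14) for *Ccnd1*, 3.18 (SE 0.11, edgeR adjusted p = 1.43e-16) for *Ccnd2* and -1.58 (SE 0.13, edgeR adjusted p = 3.57e-09) for *Ccnd3*.

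Per kilobase of principal transcript, *Ccnd2* made up 43.2% ± 9.11 of the summed D cyclin level in LPS plus BHB and 64.9% ± 1.24 in LPS, against 1.96% ± 0.275 in control (SD, n = 3 each). *Ccnd3* made up 51.2%, 31.9% and 64.7% in the same groups, and *Ccnd1* 5.58%, 3.19% and 33.4%. *Ccnd2* was the highest of the 3 in LPS and the lowest in control under either length definition. By all annotated exons, chosen as an alternative after seeing the data, *Ccnd1* rather than *Ccnd3* led in control, at 61.0%, and *Ccnd2* rather than *Ccnd3* led in LPS plus BHB, at 63.0%. The sum was 9.99 ± 1.06 CPM per kb in LPS plus BHB, 10.8 ± 0.263 in LPS and 23.9 ± 0.0607 in control.

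**Figure D4:**
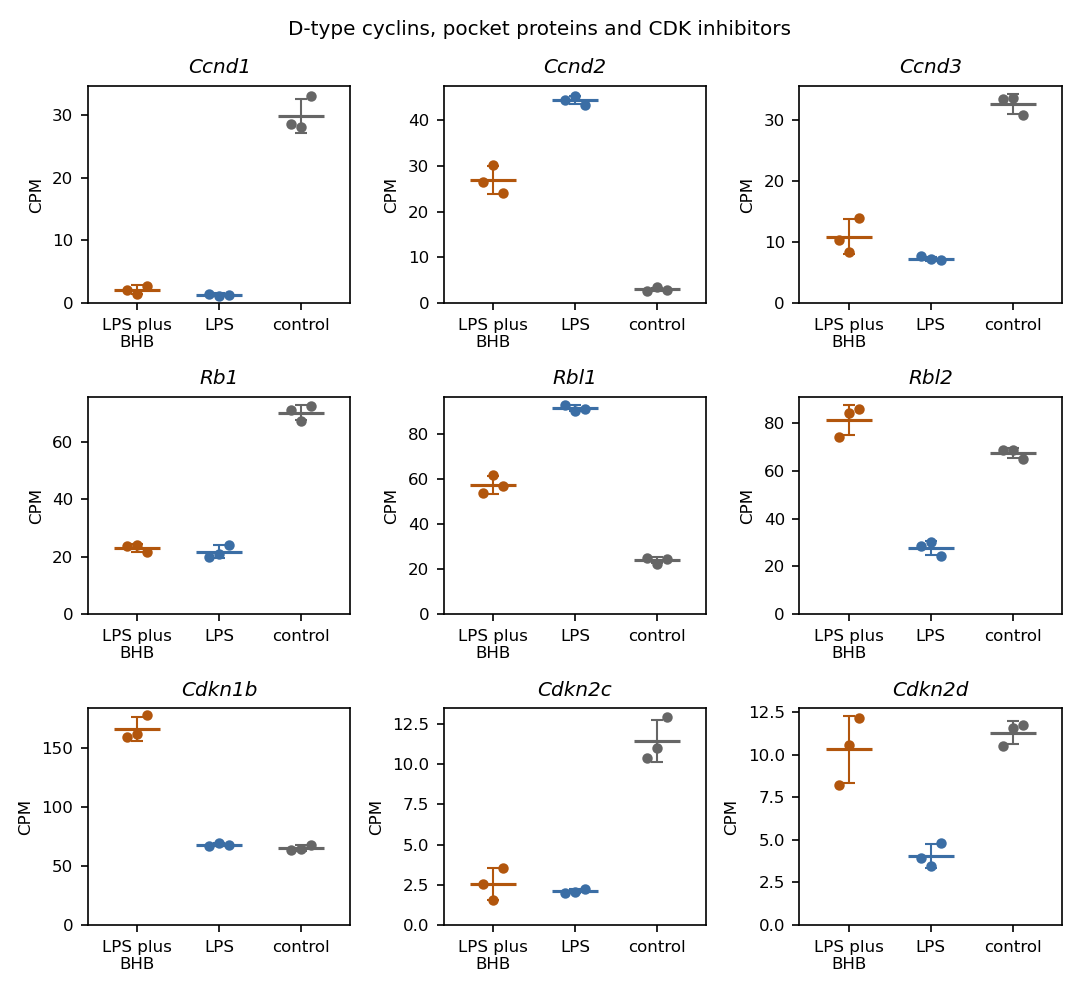
CPM of 3 D-type cyclins, 3 pocket proteins and 3 CDK inhibitors in each library, with the group mean and SD, on axes that start at 0. *Cdkn1b* at 159 to 178 CPM and *Rbl2* at 74.2 to 85.8 CPM were highest in LPS plus BHB, whereas *Ccnd2* and *Rbl1* were highest in LPS.

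Of the 8 cyclins and kinases of G1 and G1/S, 4 rose and 3 fell with LPS, where 38.4% of all tested genes were called higher and 41.4% lower. With BHB against LPS 4 rose and 2 fell, beside 26.4% and 24.4% of all tested genes. Among the kinases, *Cdk6* and *Cdk4*, which pair with D cyclins, were abundant in all groups. *Cdk6* averaged 254 ± 30.8 CPM in LPS plus BHB, 257 ± 20.9 CPM in LPS and 123 ± 3.14 CPM in control (SD, n = 3 each). It rose by 1.07 (SE 0.08, edgeR adjusted p = 5.77e-08) with LPS, and BHB with LPS made no called difference to it (-0.02 (SE 0.08, edgeR adjusted p = 0.877)). *Cdk4* rose by 0.31 with LPS and fell by 0.26 with BHB against LPS, its rise shrinking to 0.04 by library totals alone (edgeR adjusted p = 0.536). Against control the change of *Cdk4* in LPS plus BHB was 0.05, not called, and -0.28 by library totals alone (edgeR adjusted p = 0.00019). Opposite-strand *Tspan31* exons overlap 19.7% of the *Cdk4* exon bases.

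*Cdk2*, the G1/S kinase, and its cyclin gene *Ccne1* both rose when BHB was added to LPS. *Cdk2* was at 17.6, 14.97 and 17.5 CPM in the LPS plus BHB libraries, 10.3, 9.37 and 11.2 CPM in the LPS libraries and 30.2, 28.7 and 30.7 CPM in the control libraries. *Ccne1* was at 5.36, 4.20 and 5.65 CPM in the LPS plus BHB libraries, 3.20, 2.90 and 2.83 CPM in the LPS libraries and 1.38, 2.30 and 1.79 CPM in the control libraries. *Cdk2* was highest in control and lowest in LPS, whereas *Ccne1* was highest in LPS plus BHB and lowest in control, and neither gene had overlapping groups. Log2 fold changes for LPS plus BHB against LPS were 0.70 (SE 0.09, edgeR adjusted p = 2.21e-06) for *Cdk2* and 0.77 (SE 0.21, edgeR adjusted p = 0.00401) for *Ccne1*. For LPS against control they were -1.54 (SE 0.09, edgeR adjusted p = 1.35e-12) and 0.70 (SE 0.22, edgeR adjusted p = 0.00633), the second of which was not called by library totals alone (0.43, edgeR adjusted p = 0.0784). *Ccne2*, the other E-type cyclin, stayed between 0.989 and 2.24 CPM and was not called in any comparison. Opposite-strand *Ints8* exons overlap 17.4% of its exon bases.

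*Cdkn1b* was higher with BHB added to LPS, and LPS alone made no called difference to it. This gene (chr6:134920401-134925513, plus strand) encodes an inhibitor of cyclin E and A kinases that is known from quiescent cells. It was at 159, 162 and 178 CPM in the LPS plus BHB libraries, 66.7, 69.6 and 67.96 CPM in the LPS libraries and 63.4, 64.1 and 68.1 CPM in the control libraries. LPS plus BHB libraries lay far above all others, 2.44-fold above LPS, with a log2 fold change of 1.29 (SE 0.05, edgeR adjusted p = 3.03e-14). In LPS against control it was 0.06 (SE 0.05, edgeR adjusted p = 0.280), not called, and by library totals alone it turned to -0.21 (edgeR adjusted p = 0.00127).

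The INK4 inhibitors of CDK4 and CDK6 fell with LPS. *Cdkn2d* was at 8.21, 10.6 and 12.1 CPM in the LPS plus BHB libraries, 3.92, 3.46 and 4.84 CPM in the LPS libraries and 10.5, 11.6 and 11.8 CPM in the control libraries, and *Cdkn2c* was at 2.54, 1.56 and 3.56 CPM in the LPS plus BHB libraries, 2.01, 2.03 and 2.23 CPM in the LPS libraries and 10.4, 10.97 and 12.9 CPM in the control libraries. The LPS libraries were the lowest for *Cdkn2d*, and LPS plus BHB overlapped control, whereas for *Cdkn2c* all treated libraries lay below control. By library totals alone *Cdkn2d* was lower in LPS plus BHB than in control (-0.46, edgeR adjusted p = 0.00573). *Cdkn2d* fell by 1.47 with LPS (SE 0.15, edgeR adjusted p = 1.7e-08) and was 2.53-fold higher with BHB against LPS, at 1.34 (SE 0.15, edgeR adjusted p = 3.17e-07). *Cdkn2c* fell by 2.45 with LPS (SE 0.21, edgeR adjusted p = 1.25e-09) and was not called with BHB against LPS, except without LPS plus BHB replicate 2 (0.55, edgeR adjusted p = 0.0336). Per kilobase *Cdkn1b* made up 81.6%, 80.2% and 53.3% of the 3 inhibitors in LPS plus BHB, LPS and control.

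Among the pocket proteins, *Rbl2* rose and *Rbl1* fell when BHB was added to LPS. *Rbl2*, the family member known for the repressive DREAM complex of resting cells (chr8:91070057-91123844, plus strand), was at 74.2, 84.3 and 85.8 CPM in the LPS plus BHB libraries, 28.4, 30.1 and 24.4 CPM in the LPS libraries and 68.7, 68.8 and 64.97 CPM in the control libraries. *Rbl1*, known as the member that E2F induces in dividing cells, was at 53.8, 61.7 and 56.8 CPM in the LPS plus BHB libraries, 92.9, 90.3 and 91.1 CPM in the LPS libraries and 24.9, 22.4 and 24.3 CPM in the control libraries. *Rb1*, the retinoblastoma gene, was at 23.6, 24.1 and 21.4 CPM in the LPS plus BHB libraries, 19.8, 21.1 and 24.2 CPM in the LPS libraries and 71.1, 67.1 and 72.3 CPM in the control libraries. LPS was lowest for *Rbl2* and highest for *Rbl1* with no overlap with the other groups, while *Rb1* was low in both treated groups and high in control. *Rbl2* rose 2.95-fold over LPS, a log2 fold change of 1.56 (SE 0.07, edgeR adjusted p = 5.89e-13), and *Rbl1* changed by -0.67 (SE 0.06, edgeR adjusted p = 5.2e-09). *Rb1* did not pass (0.09 (SE 0.08, edgeR adjusted p = 0.359)). Log2 fold changes of LPS against control were -1.29 (SE 0.07, edgeR adjusted p = 1.34e-12) for *Rbl2*, 1.94 (SE 0.06, edgeR adjusted p = 4.33e-17) for *Rbl1* and -1.70 (SE 0.07, edgeR adjusted p = 9.33e-15) for *Rb1*.

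Per kilobase, a different pocket protein gene led in each group. *Rbl2* led in LPS plus BHB at 49.6% ± 1.78 of the sum, *Rbl1* in LPS at 64.7% ± 1.03 and *Rb1* in control at 44.7% ± 1.20 (SD, n = 3 each). The same genes led when all annotated exons were used as the length, at 44.5%, 67.8% and 47.4%. The sum was 33.3 ± 1.94 CPM per kb in LPS plus BHB, 29.1 ± 0.161 in LPS and 33.7 ± 0.682 in control. Against control *Rbl2* in LPS plus BHB was at 0.27 (SE 0.07, edgeR adjusted p = 0.00117), which turned to -0.05 by library totals alone (edgeR adjusted p = 0.461). Opposite-strand exons, of *Aktip* and *Gm45464*, overlap 21% of the *Rbl2* exon bases, and 14.9% of those of *Rb1* are overlapped, by *Rcbtb2* and *Lpar6*. *Rbl1* had no exon overlap.

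The *Rbl1* promoter is shown because this gene rose with LPS although it carries E2F letters, as does *Mcm6*, which fell. Its match, in capitals, begins 18 bases before the RefSeq start in chr2:157204535-157204654, minus strand.
Rbl1: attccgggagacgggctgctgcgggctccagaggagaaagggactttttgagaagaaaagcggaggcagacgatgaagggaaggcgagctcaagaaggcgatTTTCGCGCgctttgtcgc

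With LPS the activator genes *E2f1* and *E2f2* fell and the repressor gene *E2f8* rose. *E2f1*, an activator, was at 9.90, 8.44 and 10.7 CPM in the LPS plus BHB libraries, 6.63, 6.19 and 5.80 CPM in the LPS libraries and 28.6, 27.9 and 24.6 CPM in the control libraries. *E2f8*, an atypical repressor that binds DNA without a DP partner, was at 30.5, 29.1 and 39.7 CPM in the LPS plus BHB libraries, 38.1, 40.6 and 35.4 CPM in the LPS libraries and 5.10, 5.25 and 5.46 CPM in the control libraries. Control stood apart from all treated libraries for both genes, above them for *E2f1* and below them for *E2f8*. Log2 fold changes for LPS against control were -2.12 (SE 0.11, edgeR adjusted p = 1e-13) and 2.85 (SE 0.11, edgeR adjusted p = 1.38e-14). Addition of BHB to LPS raised *E2f1* by 0.64 (SE 0.11, edgeR adjusted p = 7.72e-05), and *E2f8* was at -0.20 (SE 0.10, edgeR adjusted p = 0.0884). That of *E2f8* passed without LPS plus BHB replicate 3 (-0.35, edgeR adjusted p = 0.00075). It also passed by library totals alone (-0.25, edgeR adjusted p = 0.0371) and with no filter on low counts (-0.21, edgeR adjusted p = 0.0238). *E2f2*, another activator, was at 1.22, 1.53 and 0.776 CPM in the LPS plus BHB libraries, 0.330, 0.0700 and 0.354 CPM in the LPS libraries and 1.89, 2.65 and 2.12 CPM in the control libraries. It stood at 0.0700 CPM in LPS replicate 2, the lowest member value in any library, and LPS was below the other groups throughout. *E2f2* fell by 3.12 with LPS (SE 0.42, edgeR adjusted p = 8.72e-07) and rose with BHB against LPS by 2.21 (SE 0.44, edgeR adjusted p = 0.000285). Its lower level in LPS plus BHB against control (-0.92) was not called without control replicate 2 or LPS plus BHB replicate 3 (edgeR adjusted p = 0.0927 and 0.0923). Among E2F genes outside the 45, chosen for mention after their values were seen, the activator *E2f3* rose with LPS by 0.39 (edgeR adjusted p = 6.52e-05) and the low repressor *E2f7* fell by 2.04 (edgeR adjusted p = 0.00404), so neither class moved as a whole. Opposite-strand *Gm2788* exons overlap 11.2% of the *E2f8* exon bases.

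*Mki67*, which encodes the Ki-67 protein that coats mitotic chromosomes and serves as a proliferation marker, rose 16.1-fold with LPS, while *Bub1b* alone rose among the other 12 genes of its phase. The gene (chr7:135689784-135716361, minus strand) was at 514, 579 and 556 CPM in the LPS plus BHB libraries, 640.5, 654 and 628 CPM in the LPS libraries and 33.1, 37.3 and 49.00 CPM in the control libraries. No treated library came near the control range. Its log2 fold changes were 4.01 (SE 0.14, edgeR adjusted p = 1.95e-08) for LPS against control and 3.79 (SE 0.14, edgeR adjusted p = 2.97e-08) for LPS plus BHB against control. Between LPS plus BHB and LPS it was -0.22 (SE 0.12, edgeR adjusted p = 0.166), and it passed when only those 6 libraries were fitted (-0.23, edgeR adjusted p = 0.000565), without control replicate 1 (edgeR adjusted p = 0.0263) or without control replicate 3 (edgeR adjusted p = 0.000896). Its exons overlap no other annotated gene, and 1.18% of its 31-base words occur elsewhere. In level per kilobase it ranked 2 among the 45 genes in LPS plus BHB and in LPS, and 21 in control.

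The other 12 genes of S phase, G2 and mitosis together summed to 51.8 to 77.0 CPM in LPS plus BHB, 60.1 to 67.6 CPM in LPS and 70.8 to 84.2 CPM in control. Of these 12, 7 fell with LPS against control, 1 rose and 4 were not called, where 41.4% of all tested genes were called lower and 38.4% higher. *Top2a*, the topoisomerase of replicating and condensing chromosomes, averaged 17.6 ± 2.73 CPM in LPS plus BHB, 17.3 ± 1.19 CPM in LPS and 23.4 ± 3.27 CPM in control (SD, n = 3 each). The ratio of *Mki67* to *Top2a* per kilobase was 14.2 to 20.2 in LPS plus BHB, 18.2 to 21.2 in LPS and 0.828 to 0.950 in control. *Cdk1*, the kinase that drives mitosis, was at 3.02, 3.27 and 5.08 CPM in the LPS plus BHB libraries, 2.67, 2.24 and 2.26 CPM in the LPS libraries and 9.88, 10.2 and 10.01 CPM in the control libraries. All treated libraries lay below control for *Cdk1*, and its log2 fold change with LPS was -2.06 (SE 0.18, edgeR adjusted p = 1.16e-09).

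**Figure D5:**
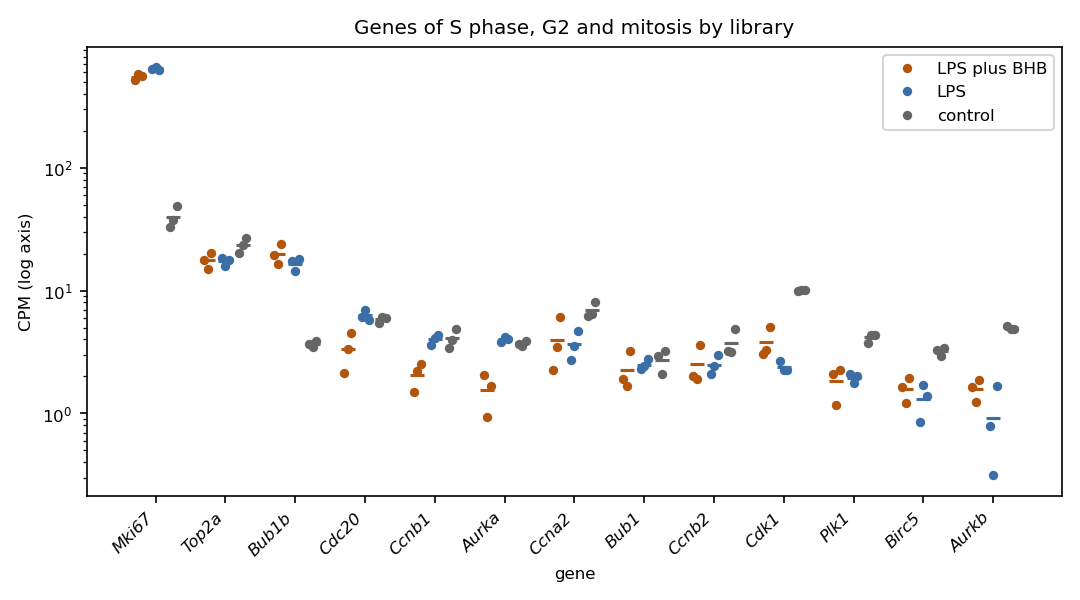
CPM of the 13 genes of S phase, G2 and mitosis in each library on a logarithmic axis, ordered by their mean in LPS, with a line at each group mean. *Mki67* at 514 to 654 CPM in the treated libraries lay more than an order of magnitude above the other genes, and *Bub1b* was the only other one with all treated libraries above control.

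*Bub1b*, a spindle checkpoint kinase gene, was the other member of this phase that rose. It was at 19.4, 16.5 and 23.9 CPM in the LPS plus BHB libraries, 17.3, 14.5 and 17.96 CPM in the LPS libraries and 3.66, 3.45 and 3.86 CPM in the control libraries. Its treated libraries were all above control, with log2 fold changes of 2.18 (SE 0.14, edgeR adjusted p = 9.13e-12) for LPS and 2.44 (SE 0.14, edgeR adjusted p = 1.38e-12) for LPS plus BHB. *Bub1*, its partner in the checkpoint, was not called in any comparison, at 1.67 to 3.21 CPM in LPS plus BHB, 2.31 to 2.76 CPM in LPS and 2.09 to 3.20 CPM in control. In LPS plus BHB against control its log2 fold change was -0.28, and it passed at -0.61 without LPS plus BHB replicate 3 (edgeR adjusted p = 0.0401) and at -0.60 by library totals alone (edgeR adjusted p = 0.0378).

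*Aurkb*, *Birc5*, *Plk1*, *Ccna2* and *Ccnb2* were lower with LPS by 2.43, 1.29, 1.08, 0.92 and 0.59 on the log2 scale. They encode the chromosomal passenger kinase and its partner survivin, a mitotic kinase, and cyclins of S phase and mitosis. All 5 averaged under 7 CPM in each group. The calls for *Ccna2* were lost without LPS replicate 1 or 2 (edgeR adjusted p = 0.0728 and 0.0632), and those for *Ccnb2* also without control replicate 3 (edgeR adjusted p = 0.247). The *Ccnb2* call was lost as well with DESeq2 (-0.56, adjusted p = 0.0573) and with DESeq2 size factors (-0.56, edgeR adjusted p = 0.052). *Top2a* fell by 0.44 with LPS, a call lost with control replicate 1 as the only control library (-0.22, edgeR adjusted p = 0.192). *Ccnb1*, *Aurka*, *Cdc20* and *Bub1* were not called with LPS. Opposite-strand *Exosc9* exons overlap 12.5% of the *Ccna2* exon bases, and 19.2% of the 31-base words of *Plk1* occur elsewhere, chiefly in *Plk-ps1*.

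Relative to control, 10 of the 13 genes fell and 2 rose in LPS plus BHB, where 40.4% of all tested genes were called lower and 38.0% higher. Among other alternatives, the *Ccnb2* call was lost with DESeq2 (-0.54, adjusted p = 0.0658) and without control replicate 3 (-0.34, edgeR adjusted p = 0.28). The *Ccna2* call was lost without control replicate 3 (edgeR adjusted p = 0.0836) and without LPS plus BHB replicates 1 or 2 (edgeR adjusted p = 0.0681 and 0.11). Of the genes not called with LPS alone, *Cdc20*, *Aurka* and *Ccnb1* were lower with BHB added. *Cdc20*, the activator of the anaphase-promoting complex, was at 2.14, 3.33 and 4.55 CPM in the LPS plus BHB libraries, 6.13, 6.89 and 5.80 CPM in the LPS libraries and 5.46, 6.05 and 5.96 CPM in the control libraries. LPS plus BHB lay below both other groups without overlap, with log2 fold changes of -0.91 (SE 0.20, edgeR adjusted p = 0.000680) against LPS and -0.80 (SE 0.20, edgeR adjusted p = 0.00102) against control. *Aurka*, a spindle pole kinase gene, fell by 1.37 against LPS (SE 0.24, edgeR adjusted p = 5.61e-05), and *Ccnb1*, the mitotic cyclin, fell by 0.96 (SE 0.22, edgeR adjusted p = 0.000904). The mean was 1.56 ± 0.572 CPM in LPS plus BHB and 4.02 ± 0.207 CPM in LPS for *Aurka*, and 2.07 ± 0.523 CPM in LPS plus BHB and 4.05 ± 0.385 CPM in LPS for *Ccnb1*. Of their 31-base words, 46.9% for *Ccnb1* and 28.7% for *Cdc20* occur in other genes, among them pseudogenes. *Cdk1* rose by 0.66 (SE 0.19, edgeR adjusted p = 0.00720), a call lost without LPS plus BHB replicate 3 (0.39, edgeR adjusted p = 0.088). *Aurkb* and *Bub1b* did not pass with BHB against LPS, but did without LPS replicate 3 for *Aurkb* (1.49, edgeR adjusted p = 0.00154) and without LPS plus BHB replicate 2 for *Bub1b* (0.38, edgeR adjusted p = 0.0119).

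Replicate 3 held the highest value of its group for 11 of the 13 genes of this phase in LPS plus BHB, 6 of 13 in LPS and 9 of 13 in control. In a list of 40 further mitosis genes it was the highest for 30 genes in LPS plus BHB, 26 in LPS and 28 in control. Over all tested genes it was the highest for 35.0%, 35.6% and 36.1% in those groups. The part of replicate 3 in the results was not tested beyond leaving it out.

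The promoters of *Cdk1* and *Mki67* are shown together because both carry the late cell cycle letters 2 times while the genes moved in opposite directions with LPS. The CHR letters are in capitals and begin 71 and 15 bases before the start of *Cdk1* (chr10:69352913-69353032, minus strand) and 116 and 98 bases before that of *Mki67* (chr7:135716380-135716499, minus strand).
Cdk1: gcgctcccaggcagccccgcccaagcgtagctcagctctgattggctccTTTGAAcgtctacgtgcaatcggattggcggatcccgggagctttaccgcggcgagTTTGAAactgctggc
Mki67: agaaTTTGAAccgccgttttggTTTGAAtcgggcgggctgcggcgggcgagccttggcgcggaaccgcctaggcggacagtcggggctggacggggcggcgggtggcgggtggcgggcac

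Other genes of the same pathways, taken as 3 lists of non-members, were set beside these. Of all tested genes, 41.4% were called lower and 38.4% higher for LPS against control. The shares were 24.4% and 26.4% for LPS plus BHB against LPS, and 40.4% and 38.0% for LPS plus BHB against control. Of 40 tested genes of the replication machinery, 22 fell and 9 rose with LPS against control, with a median log2 fold change of -0.65. Between LPS plus BHB and LPS 13 fell and 4 rose, at a median of -0.14, and against control 22 fell and 5 rose in LPS plus BHB. *Rfc2*, a clamp loader subunit, was at 7.70, 8.34 and 9.18 CPM in the LPS plus BHB libraries, 8.57, 10.1 and 9.69 CPM in the LPS libraries and 36.4, 37.6 and 35.6 CPM in the control libraries. All treated libraries were lower, with -1.95 (SE 0.09, edgeR adjusted p = 1.71e-14) for LPS. *Gmnn*, geminin, the inhibitor of *Cdt1*, fell by 2.39 with LPS (edgeR adjusted p = 8.08e-12). The origin recognition gene *Orc2* went the other way, rising with LPS by 1.27 (edgeR adjusted p = 2.16e-13) and falling with BHB against LPS by 0.61 (edgeR adjusted p = 1.04e-07). *Orc4* rose by 1.17 in LPS plus BHB against control (edgeR adjusted p = 5.87e-12). *Dbf4*, the activator of the origin-firing kinase, and *Rpa2*, of the single-strand binding complex, fell with BHB against LPS by 0.96 (edgeR adjusted p = 7.16e-08) and 0.50 (edgeR adjusted p = 7.68e-05).

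In the mitosis list 27 of 40 genes fell and 4 rose with LPS against control, with a median of -0.85, beside 41.4% and 38.4% of all tested genes. Between LPS plus BHB and LPS 7 fell, 3 rose and 30 were not called. That was 17.5% lower and 7.5% higher, under the 24.4% and 26.4% of all tested genes. *Cenpa*, the centromeric histone, was at 3.46, 2.54 and 3.11 CPM in the LPS plus BHB libraries, 2.51, 1.29 and 2.62 CPM in the LPS libraries and 37.6, 38.7 and 36.7 CPM in the control libraries. Both treatments took it far below control, by 4.13 for LPS (edgeR adjusted p = 6.98e-15) and 3.63 for LPS plus BHB (edgeR adjusted p = 2.54e-14). *Cdc25b*, a phosphatase of mitotic entry, fell by 3.69 with LPS (edgeR adjusted p = 2.39e-15). *Mad2l1*, a spindle checkpoint gene, was at 34.9, 38.2 and 36.9 CPM in the LPS plus BHB libraries, 38.3, 36.2 and 38.6 CPM in the LPS libraries and 7.46, 8.11 and 8.97 CPM in the control libraries. Like *Bub1b* it was above control in every treated library, at 2.20 (SE 0.08, edgeR adjusted p = 4.29e-16) for LPS. *Foxm1*, a transcription factor of G2 genes, fell with BHB against LPS by 0.96 (edgeR adjusted p = 2.55e-06) and the condensin gene *Smc2* by 0.68 (edgeR adjusted p = 1.23e-05), whereas its partner *Smc4* rose by 0.57 (edgeR adjusted p = 3.03e-07). The 12 members other than *Mki67* and this list summed to 319 to 390 CPM in LPS plus BHB, 348 to 371 CPM in LPS and 468 to 515 CPM in control. In CPM, *Mki67* alone thus exceeded the sum of these 52 genes in each treated library. CPM are not scaled by transcript length, and the *Mki67* transcript is long, at 10.1 kb. The statement therefore does not carry over to levels per kilobase.

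Among 30 other regulators 18 rose and 8 fell with LPS against control, with a median of 0.58, beside 38.4% and 41.4% of all tested genes. When BHB was added, 6 rose and 13 fell against LPS, beside 26.4% and 24.4% of all tested genes. *Ccng2*, an unconventional cyclin known from arrested cells, was at 366, 357 and 385 CPM in the LPS plus BHB libraries, 125, 128 and 125 CPM in the LPS libraries and 45.7, 48.6 and 44.9 CPM in the control libraries. The groups did not overlap and each step was a rise, by 1.44 (SE 0.05, edgeR adjusted p = 7.86e-17) for LPS against control and 1.55 (SE 0.05, edgeR adjusted p = 2.51e-16) for LPS plus BHB against LPS. *Lin9*, a core subunit of the complexes that pocket proteins form on cell cycle promoters, was at 28.3, 30.6 and 27.5 CPM in the LPS plus BHB libraries, 10.6, 11.6 and 9.51 CPM in the LPS libraries and 7.49, 7.33 and 7.45 CPM in the control libraries. LPS plus BHB stood above the other groups, at 1.44 (SE 0.09, edgeR adjusted p = 4.44e-11) against LPS. *Cdkn1c*, another CDK inhibitor, was at 16.1, 14.1 and 12.7 CPM in the LPS plus BHB libraries, 28.8, 29.00 and 33.2 CPM in the LPS libraries and 63.02, 60.4 and 66.05 CPM in the control libraries. It was lowest in LPS plus BHB, falling by 1.08 against LPS (edgeR adjusted p = 1.12e-09) and by 1.06 with LPS against control (edgeR adjusted p = 5.03e-11), the opposite direction to *Cdkn1b* with BHB. *Btg1*, an antiproliferative gene, rose by 1.15 with LPS (edgeR adjusted p = 6.81e-15) and was not called with BHB against LPS.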

How the data were processed

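The authors deposited raw counts per gene symbol for 9 libraries. Per the submitters' processing notes reads were aligned with HISAT2 to mm10. The tool that counted reads, its annotation and its strand setting were not given in the sources used here. Symbols passing filterByExpr (minimum count 10, 14026 of 46095) got TMM factors, and edgeR 4.0.16 (R 4.3.3) fitted 1 quasi-likelihood model to the 9 libraries, by group alone, leaving 6 residual degrees of freedom. Tests were two-sided, adjusted by Benjamini-Hochberg over all tested genes at 0.05. The SE of a log2 fold change was derived from the F statistic and is approximate.

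Levels per kilobase divide CPM by the longest APPRIS principal transcript in GENCODE M21 (GRCm38, the build that mm10 names). Promoter windows are RefSeq's. Overlap and 31-base words shared with other genes were computed from GENCODE. At 29633411 to 32798920 counts per library, counting error equals the common biological coefficient of variation of 6.72% at about 221 counts, and 31 of the 45 members had a lower mean count in at least 1 group.

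The members and lists were chosen with earlier results of these data known. Values per library are given, for each role and comparison, for up to 3 called members with the largest change and a mean of at least 5 CPM in a group, and further pathway genes for the 3 smallest p per list. A gene that this rule selects is not reported here. The other members are named so that all 45 are accounted for, with values chosen after they were seen. Over all tested genes, replicate numbers showed no pairing of the libraries. Correlations of deviations were -0.017 to 0.039 for the same number and -0.038 to 0.043 for different numbers. Pairing over the mitosis genes alone, where replicate 3 was often the highest, was not tested. Replicates differed beyond sampling noise (chi-square per degree of freedom 3.16 to 11.2). Alternatives were DESeq2 1.42.0, DESeq2 size factors, library totals alone, no filter, a replicate block, 6 libraries only, control replicate 1 alone, a threshold of 0.01 and leaving out each library.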

Additional observations from a re-analysis of the deposited data

How the results depend on the processing

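Counts of members called higher and lower stayed between 9 and 11 and between 22 and 29 for LPS against control under the alternatives run, between 11 and 15 in each direction for LPS plus BHB against LPS, and between 8 and 11 and between 22 and 33 for LPS plus BHB against control. Of 162 single-gene values per alternative, at most 13 lost their call, with control replicate 1 as the only control library. Library totals alone reversed 4 of them, *Cdkn1b* to -0.21 in LPS against control, and *Mcm4* to -0.13, *Cdk4* to -0.28 and *Rbl2* to -0.054 in LPS plus BHB against control. The cause was not tested beyond the shift of the median that this scaling gives. The replicate block moved the members called in LPS plus BHB against LPS to 14 higher and 12 lower. Under that block *Cdc6* (0.95, edgeR adjusted p = 0.0712) and *Gins2* (-0.43, edgeR adjusted p = 0.0581) lost their calls, *Aurkb* (0.84, edgeR adjusted p = 0.0492) and *Bub1b* (0.25, edgeR adjusted p = 0.0367) gained them, and no other member or pathway gene named changed. Over all tested genes the replicate numbers showed no pairing of the libraries, and pairing over the mitosis genes alone was not tested. Depth limits members under about 221 counts, 25 in LPS plus BHB, 26 in LPS and 18 in control, and most of all those under about 1 CPM, such as *Cdc6*, *Gins1*, *E2f2* and *Tk1* in LPS. The share of member promoters with E2F letters was 17.5% in the 250 bases before the start, against 1.86% of all windows.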
